A study of Mus musculus with 16 samples.

Results

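Marrow-derived dendritic cells of ovariectomized, lupus-prone NZM2410 mice were compared between 2 arms after stimulation through the endosomal Toll-like receptors. One arm is named ERKO OVX (ERKO Shrt OVX) in the source labels, where Shrt stands beside a short form of estrogen receptor α (ERα), and the other is named Ex3a (ERKO NULL OVX). The members were all gene rows of the deposited expression table in 4 of its 16 libraries, namely both ERKO OVX libraries and both Ex3a OVX libraries treated with loxoribine plus CpG. Of 24001 rows, 11331 genes passed a filter of 1 FPKM (fragments mapped to a gene, divided by its transcript length and by the library's mapped total) in at least 2 of the 16 libraries. The other libraries were the vehicle-treated pairs of these arms and 8 from unoperated mice (WT and KO, each with vehicle and with agonists).

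Mice of both arms had been ovariectomized at 4 to 8 weeks of age and carried a 0.25 mg pellet releasing 17β-estradiol over 90 days, so both arms shared the surgery and the replaced hormone. Marrow was grown with 20 ng/ml of GM-CSF and 10 ng/ml of IL-4 until day 7. The cells then spent 24 h with vehicle or with both agonists, loxoribine for TLR7 and CpG (1 μg/ml) for TLR9. The loxoribine dose stands as 200 μmol/ml in the labels, and that unit was not checked. The cells are described as CD11c-high in the series' design.

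The labels do not agree on the receptor forms. By source label the Ex3a OVX arm is null and the ERKO OVX arm is short. The genotype labels instead give Esr1(tm1Ksk), described as a truncated receptor with residual estrogen response, to all 4 agonist-treated libraries compared here and to the Ex3a OVX vehicle pair, and give Esr1(tm4.2Ksk), described as having no receptor activity, to the ERKO OVX vehicle pair. Values summed per gene cannot tell these alleles apart. The arms are therefore called ERKO OVX and Ex3a OVX throughout, and no direction below is assigned to an allele. No label ties the 2 libraries of an arm to different animals or dishes. The p-values may therefore rest on technical spread. For ERKO OVX replicate 2 with agonists, and for 1 library in each unoperated group, the labels report corrupted raw read files. Each pair differed by about the sampling noise and was counted as 1 sample, so the comparison has 1 sample per arm, and the errors given are borrowed from the unoperated groups.

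ERα is a nuclear receptor that binds estradiol and regulates genes through an amino-terminal and a carboxy-terminal activation function; the short form lacks the amino-terminal one. In marrow cultures with GM-CSF, estradiol acting through ERα is known to favor dendritic cell differentiation. TLR7 and TLR9 recognise RNA and DNA in endosomes and signal through MyD88 to NF-κB and to interferon regulatory factors, and the type I interferon made in response induces a large set of antiviral genes. Such cultures also hold macrophage-like cells, which differ from dendritic cells in complement C1q, Fc receptors and scavenger receptors.

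The ERKO OVX libraries had an estimated depth of 22.7 and 23 M fragments and summed to 613251 and 612322 FPKM, and the Ex3a OVX libraries had 17.6 and 18.4 M fragments and summed to 696321 and 692566 FPKM, so that depth and sum moved with the arm and cannot be told apart from it. Of the genes that define the labelled cell type, Itgax, which encodes CD11c, was at 145 and 145 FPKM in ERKO OVX and 90.5 and 88.1 FPKM in Ex3a OVX. Cd74, the class II chaperone, was at 6463 and 6459 and 6704 and 6657 FPKM. The macrophage marker Emr1, an older symbol of Adgre1 for the surface protein F4/80, was at 621 and 627 and 1353 and 1335 FPKM, while Apoe stayed under 1 FPKM in these libraries, a low value that may be a failed estimate. The Ex3a OVX pair given agonists stood apart from the other ovariectomized libraries in RNAs outside the protein-coding genes. Rn45s, the ribosomal RNA precursor, was at 8306 and 8258 FPKM in that pair and listed at 0 in the other 6, the vehicle-treated Ex3a OVX pair included. The nuclear RNA Xist was lower in Ex3a OVX (9.74 and 9.62 against 4.43 and 4.33 FPKM), and so was Neat1 (17.9 and 18.7 against 8.04 and 7.79 FPKM), while Malat1, at 113 and 111 against 80.5 and 78.2 FPKM, did not pass the test used below. For all 3 nuclear RNAs the pair was the lowest of the 8 ovariectomized libraries, where the other 6 had 7.2 to 9.74 FPKM of Xist, 13.3 to 18.7 FPKM of Neat1 and 99.2 to 123 FPKM of Malat1. The part of these library differences in the results below was not tested.

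Esr1 itself was at 1.12 and 1.16 FPKM in the ERKO OVX libraries and at 0.364 and 0.317 FPKM in the Ex3a OVX libraries. The pairs did not overlap, and the difference was -0.67 ± 0.11 on the log2(FPKM + 1) scale (SE, adjusted p = 4.76e-04 in limma, Benjamini-Hochberg adjustment over all genes tested). Vehicle-treated libraries had 1.02 and 0.982 FPKM in ERKO OVX and 0.347 and 0.283 FPKM in Ex3a OVX, so the gap was present without agonists. The gene lies at chr10:4611593-5005614 on the plus strand (GRCm38). Its neighbours did not move in 1 direction: Zbtb2 (0.32 ± 0.08) and Plekhg1 (0.90 ± 0.05) were higher and Mthfd1l was lower (-0.76 ± 0.09). Syne1, next on the distal side, was lower (-0.34 ± 0.06), a sign that turned after adjustment for transcript length (0.17). Rmnd1 was higher (0.36 ± 0.07) only through replicate 1 of Ex3a OVX, without which its difference was 0.01, since the 2 libraries read 6.22 and 3.48 FPKM. Within 20 megabases of Esr1, 4 of 66 tested genes (6.06%) differed beyond 1.5-fold, against 7.54% of all genes tested. Esr2, which encodes ERβ, stayed under 1 FPKM and was not tested, at 0.806 and 0.839 FPKM in ERKO OVX and 0.0498 and 0.129 FPKM in Ex3a OVX. Of 18 tested genes linked to estrogen response in other tissues, 8 were higher and 4 lower, 2 and 0 past 1.5-fold as defined below, with a median log2 difference of 0.12; with each library brought to the same FPKM sum 6 were higher and 6 lower and the median was -0.03. Esr1 is itself among the 18, with the lowest value of them (-0.67), so it is counted as lower there. The shares of all genes tested that were higher or lower stand in the next paragraph. Of the 18, the cyclin gene Ccnd1 was at 1.9 and 1.74 against 7.18 and 7.37 FPKM (1.55 ± 0.07) and Fos at 14.9 and 14.8 against 33.4 and 36.1 FPKM (1.17 ± 0.09). The listed genes Greb1 and Pgr stayed near 0 and were not tested.

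Expression differed between the arms in most genes. In the sentences that follow, every log2 difference is Ex3a OVX minus ERKO OVX on the log2(FPKM + 1) scale with its SE, and a gene is described as higher or lower only where its adjusted p was at or under 0.05. With 1 averaged sample per arm, the SE comes from the spread of the unoperated groups. By that rule 7105 of 11331 genes (62.7%) differed, 3634 higher (32.1%) and 3471 lower (30.6%) in Ex3a OVX. A stricter test, limma's treat against a 1.5-fold difference, found 854 genes (7.54%), 480 higher (4.24%) and 374 lower (3.3%), and these are described as past 1.5-fold. The split depended on scaling: with each library brought to the same FPKM sum, 2130 genes were higher and 5316 lower, and 348 and 644 past 1.5-fold, because the median of all genes then moved by -0.148 on the log2 scale; among the genes named in the text, Cfp, Cxcl10, Fcgr3, H2-K1, Ifitm3, Psmb8, Stfa2, Tap1 and Tmsb4x were then no longer past 1.5-fold, Abcg1, Nfe2l2 and Zbtb2 no longer passed, and Cd68, Cd74, Cfb, Ebp, Fcgr2b, Lpl, Parp14, Tlr2 and Tnf passed as lower. With 5 FPKM added before the logarithm, several low genes named in the text were no longer past 1.5-fold. They were Ccr2, Cd5l, Cd55, Hivep3, Ifnb1, Il23a, Itgb3, Neat1, Nlrp3, P2ry12, Pan3, Plekhg1, Vcan and Xist, besides the abundant Tmsb4x. Il23a then had -0.72, Ccr2 0.64, Cd5l -0.51 and Vcan -0.57, while S100a9 and Tnf passed as lower. The 2 pairs of libraries did not overlap in 9523 genes (84%), so a lack of overlap says little about a single gene. Of the genes tested, 170 reached the filter only through Ex3a OVX libraries and 82 only through ERKO OVX libraries, in either treatment state. That is, they would not have passed without those libraries, and Elane is counted in both sets. The filter picked such genes in part by their level in that arm, and at most 3 of them stand in any list counted below. Through the Ex3a OVX libraries alone came Folr2 among the macrophage genes, Tgtp2 among the GTPases and Cxcl9 and Cxcl11 among the chemokines. So did Csf2 among the cytokines and Apoc2 among the lipid efflux genes. Other such members of the counted lists are named in the text.

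**Figure D1:**
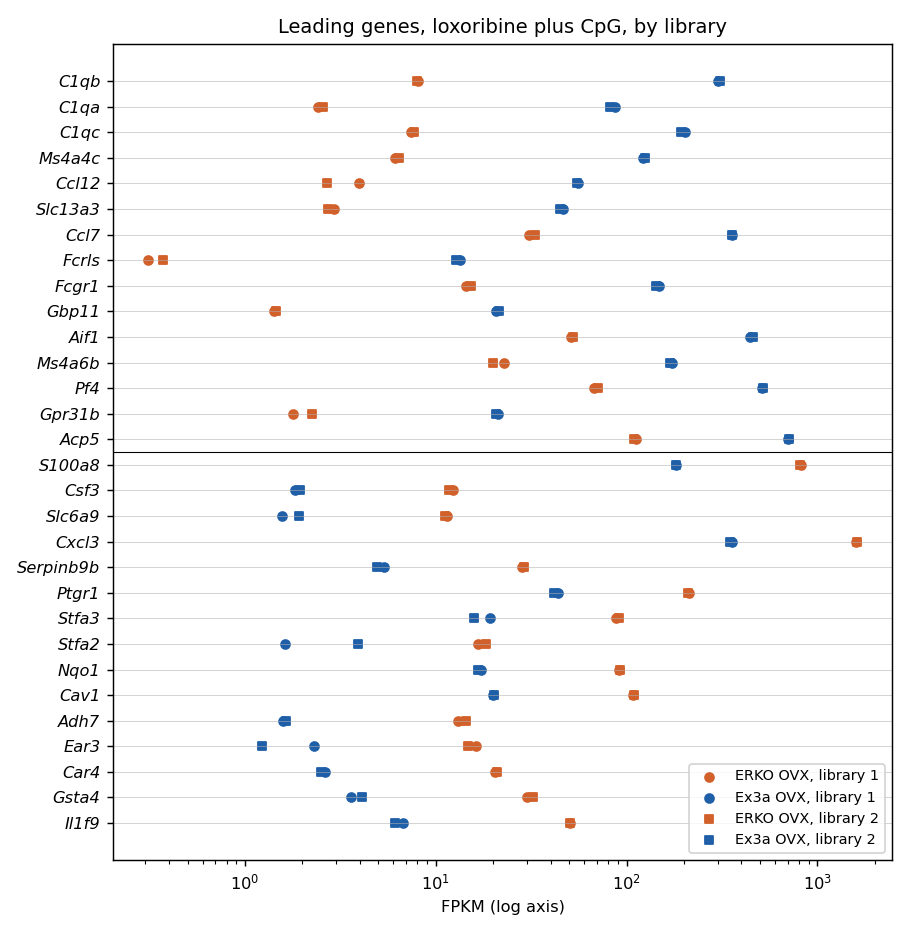
FPKM on a log axis of the 15 genes with the largest rise and the 15 with the largest fall in Ex3a OVX among genes of at least 5 FPKM, in each of the 4 agonist-treated libraries (orange, ERKO OVX; blue, Ex3a OVX; circles and squares, libraries 1 and 2). C1qb sits at 8.04 and 7.99 FPKM in ERKO OVX and 302 and 309 FPKM in Ex3a OVX, and Il1f9 at 50.5 and 50.6 and 6.76 and 6.12 FPKM; within each pair the 2 points mostly coincide.

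The chains of complement C1q, the protein that starts the classical complement pathway and coats immune complexes and dying cells, led the genes that were higher. C1qb was at 8.04 and 7.99 FPKM in the ERKO OVX libraries and at 302 and 309 FPKM in the Ex3a OVX libraries, a difference of 5.09 ± 0.10 (adjusted p = 1.55e-09). C1qa went from 2.4 and 2.56 to 86.6 and 81.6 FPKM (4.61 ± 0.06) and C1qc from 7.43 and 7.66 to 203 and 194 FPKM (4.54 ± 0.08). All 3 chains were past 1.5-fold and lie side by side at chr4:136895917-136898803 on the minus strand, chr4:136889804-136893065 on the minus strand and chr4:136880129-136886187 on the minus strand. In bulk libraries more cells of a type and more RNA per cell cannot be told apart, here or in the groups below.

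Macrophage genes were mostly higher in Ex3a OVX. Of 27 tested members of the list, 19 were higher and 3 lower, 14 and 1 past 1.5-fold, with a median log2 difference of 0.87 where all genes tested had 0.00. Fcgr1, the high-affinity receptor for IgG, was at 14.4 and 15.4 FPKM in ERKO OVX and 148 and 143 FPKM in Ex3a OVX (3.20 ± 0.11). Maf, which encodes a transcription factor of macrophages, was at 13.4 and 14 against 46.1 and 46.6 FPKM (1.68 ± 0.09). Emr1, at the levels given above, differed by 1.11 ± 0.04. Single receptors for modified lipoproteins and dying cells were higher too: Msr1 at 136 and 136 against 429 and 425 FPKM, Stab1 at 2.37 and 2.52 against 9.28 and 9.02 FPKM, and Mertk at 9.44 and 9.14 against 23.8 and 23.7 FPKM. Genes for the uptake of dying cells did not move as a body, with 7 of 16 tested higher and 8 lower, 5 and 2 past 1.5-fold, and a median of -0.15. Siglec1, the sialic acid receptor CD169, was at 9.17 and 9.09 against 28.4 and 28.2 FPKM, and Trem2, a lipid receptor, at 52 and 49.6 against 119 and 114 FPKM. The rise did not take in the whole list. Cd68 (0.03 ± 0.04), Lpl (-0.06 ± 0.05) and Clec10a (0.10 ± 0.12) did not pass the test, Csf1r, the M-CSF receptor, was higher by 0.40 only, and Cd5l, a scavenger protein, was lower (2.72 and 2.44 to 0.418 and 0.244 FPKM, -1.43 ± 0.08). Aif1, an actin-bundling protein of macrophages, was at 51.5 and 52.2 against 443 and 459 FPKM (3.10 ± 0.04), and Acp5, a phosphatase of osteoclasts and macrophages, at 112 and 109 against 704 and 708 FPKM (2.67 ± 0.04).

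Receptors for immunoglobulin and complement followed. Of 10 Fc receptor genes and their signalling partners, 8 were higher and 1 lower, 4 past 1.5-fold higher. Fcgr4 was at 28.8 and 26.9 FPKM in ERKO OVX and 145 and 144 FPKM in Ex3a OVX (2.33 ± 0.07) and Fcgr3 at 339.7 and 339 and 624 and 622 FPKM (0.88 ± 0.04); both are activating receptors. The inhibitory receptor gene Fcgr2b did not pass the test (535 and 527 against 501 and 507 FPKM, -0.08 ± 0.03, adjusted p = 0.0674); its adjusted p was 0.0397 to 0.0471 without replicate 2 of either arm or without either agonist-treated KO library. Fcrls, an Fc receptor-like gene, was under 1 FPKM in ERKO OVX (0.312 and 0.37) and at 13.4 and 12.8 FPKM in Ex3a OVX (3.40 ± 0.12). Outside C1q, the complement genes higher past 1.5-fold were C3ar1, the receptor for C3a (47.3 and 47 to 256 and 254 FPKM, 2.41 ± 0.07), Cfp, which encodes properdin (373 and 372 to 645 and 638 FPKM, 0.78 ± 0.03), and Cd55, an inhibitor of complement on the cell surface (1.32 ± 0.08). Cd55 reached the filter only through the Ex3a OVX libraries, and with 5 FPKM added before the logarithm its difference was 0.50. Cfb, at 1024 and 1035 against 1052 and 1042 FPKM, did not pass (0.02 ± 0.04).

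The MS4A genes, which encode membrane proteins with several transmembrane segments and are clustered on chromosome 19, gave large differences. Of 8 tested, 6 were higher, all 6 past 1.5-fold, and 2 were lower. Among them, Ms4a4b reached the filter only through the Ex3a OVX libraries and Ms4a2 only through the ERKO OVX libraries. Ms4a4c was at 6.08 and 6.41 FPKM in ERKO OVX and 122 and 125 FPKM in Ex3a OVX (4.10 ± 0.07), Ms4a6b at 22.9 and 20.0 and 174 and 169.5 FPKM (2.95 ± 0.06), and Ms4a7 at 73.8 and 76.4 and 377 and 373 FPKM (2.31 ± 0.06). The lower members were Ms4a3, a gene of granulocyte and monocyte progenitors (-0.52 ± 0.08), and Ms4a2, the β chain of the IgE receptor (-0.53 ± 0.08). Several of these genes are close paralogs, so the deposited values may share reads between them, as may those of the Gbp, Tgtp, H2, Ear, Stfa and Gsta genes named below.

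Lysosomal genes were higher by smaller steps. Of 20 tested, 17 were higher and 2 lower, 3 and 1 past 1.5-fold, with a median of 0.50. The cathepsins Ctsl (1449 and 1457 to 3444 and 3424 FPKM, 1.24 ± 0.04), Ctsb (1664 and 1673 to 2645 and 2623 FPKM, 0.66 ± 0.03) and Ctss (3444 and 3452 to 5415 and 5380.5 FPKM, 0.65 ± 0.04), which cut proteins in endosomes and lysosomes, were among the 10 most abundant genes that differed by 1.5-fold or more. Cathepsin K, from Ctsk, went the other way (73.5 and 75.5 to 30.3 and 28 FPKM, -1.32 ± 0.05). The most abundant genes of that kind also included Tmsb4x, which binds actin monomers (7806 and 7808 to 12850.3 and 12762 FPKM, 0.71 ± 0.04; its adjusted p in the 1.5-fold test, 0.0388, was 0.0518 to 0.0565 without any 1 WT library), and Lyz2, lysozyme (5355 and 5359.8 to 11006 and 10973 FPKM, 1.04 ± 0.05).

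Interferon-stimulated genes were higher almost as a body. Of 37 tested, 36 were higher and 0 lower, 25 past 1.5-fold, and the median was 1.05. Ifit3, whose protein binds partners that sense viral RNA, was at 75.1 and 73.5 FPKM in the ERKO OVX libraries and 305 and 307 FPKM in the Ex3a OVX libraries (2.03 ± 0.05, adjusted p = 1.07e-09). Isg15, a ubiquitin-like modifier and one of the most abundant of them, was at 496 and 496 FPKM in ERKO OVX and 1221 and 1221 FPKM in Ex3a OVX (1.30 ± 0.07). Isg20, an RNA exonuclease, went from 21.2 and 23.4 to 84.8 and 87.6 FPKM (1.91 ± 0.08), and Rsad2, viperin, from 113 and 111 to 296 and 297 FPKM (1.40 ± 0.08). The exception was Parp14 (0.01 ± 0.04), which did not pass. Ifnb1, interferon β itself, was at 1.01 and 0.989 FPKM in ERKO OVX and 3.7 and 4.94 FPKM in Ex3a OVX (1.40 ± 0.10). This member of the list reached the filter only through the Ex3a OVX libraries, and with 5 FPKM added before the logarithm its difference was 0.63. The signal carriers Stat2 (49.1 and 49.2 to 93.5 and 93.6 FPKM, 0.92 ± 0.05) and Irf7 (347 and 345 to 769 and 772 FPKM, 1.15 ± 0.03) were past 1.5-fold, whereas Irf9 rose by 0.31 only. With each library brought to the same sum the list had a median of 0.89, with 36 higher and 1 lower, and after adjustment for transcript length a median of 1.01.

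The interferon-induced GTPases, which attack vacuoles of intracellular microbes, were higher in the same way. Of 16 tested, 15 were higher and 0 lower, 12 past 1.5-fold, with a median of 1.04. Iigp1 was at 19 and 19.4 FPKM in ERKO OVX and 100.3 and 101 FPKM in Ex3a OVX (2.34 ± 0.07), Tgtp1 at 5.2 and 6.4 and 28.7 and 27.4 FPKM (2.10 ± 0.07), and Gbp4 at 27.6 and 26.8 and 75.6 and 72.8 FPKM (1.41 ± 0.06). Gbp11, outside the list, was among the 15 largest rises (1.42 and 1.45 to 20.7 and 21.5 FPKM, 3.18 ± 0.09), and Gvin1 was the member that did not pass (0.31 ± 0.40). Ifitm3, a membrane protein that blocks virus entry, was among the most abundant genes that differed (1731 and 1777 to 2997 and 2989 FPKM, 0.77 ± 0.04).

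Many promoters of these genes carry the letters that interferon-activated factors bind, and 4 are printed here because they show them in genes that were higher in Ex3a OVX. They come from RefSeq (GRCm38.p6), 5′ to 3′ on the gene's strand, and the capitals mark matches to the interferon-stimulated response element, searched on both strands as GAAA, any 2 bases and GAAA, overlaps included.
Ifit3, chr19:34583348-34583447, plus strand: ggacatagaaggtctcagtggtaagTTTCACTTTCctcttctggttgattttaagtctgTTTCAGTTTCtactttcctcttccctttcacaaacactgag
Isg15, chr4:156200822-156200921, minus strand: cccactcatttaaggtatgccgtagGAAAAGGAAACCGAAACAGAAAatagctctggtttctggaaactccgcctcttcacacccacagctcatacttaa
Irgm2, chr11:58214877-58214976, plus strand: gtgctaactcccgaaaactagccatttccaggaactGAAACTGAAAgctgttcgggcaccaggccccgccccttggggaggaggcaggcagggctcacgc
Igtp, chr11:58199456-58199555, plus strand: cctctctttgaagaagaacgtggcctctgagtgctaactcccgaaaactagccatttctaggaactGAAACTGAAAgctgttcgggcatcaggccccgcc
In a window from 250 bases before to 50 bases after the start, the element stood in 3.36% of 6867 tested genes with 1 listed start. It stood in 13.6% of 272 genes higher past 1.5-fold, in 2.74% of 219 lower past 1.5-fold, in 13 of 22 interferon-stimulated genes (59.1%) and in 8 of 9 GTPase genes (88.9%). Irgm2 was at 24.2 and 24.3 FPKM in ERKO OVX and 52.3 and 50.7 FPKM in Ex3a OVX (1.06 ± 0.06), and Igtp, its neighbour on chromosome 11, at 66.4 and 66.9 and 133 and 131 FPKM (0.98 ± 0.04). A full estrogen response element, GGTCA, any 3 bases and TGACC, was found in 0 of 6867 windows, and AGGTCA in 11.9% of all, 19.1% of the higher and 14.2% of the lower genes. A match is a run of letters and not a bound site.

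Genes of the class I antigen pathway were also higher, 18 of 19 tested, with 0 lower, 8 past 1.5-fold and a median of 0.55. H2-K1, a classical class I heavy chain, was at 1536 and 1526 FPKM in ERKO OVX and 2697 and 2682 FPKM in Ex3a OVX (0.81 ± 0.03). The immunoproteasome subunits Psmb8 (264 and 261 to 469.8 and 476 FPKM), Psmb9 (170.2 and 173 to 326 and 326 FPKM) and Psmb10 (109 and 112 to 217 and 217 FPKM) rose by 0.85, 0.92 and 0.97, and Tap1, which carries peptides into the endoplasmic reticulum, by 0.74. B2m, the light chain, was at 9299.6 and 9332 against 12986 and 12826 FPKM (0.47 ± 0.03). H2-Q7 had the largest value of the list (2.56 ± 0.12), but its ERKO OVX libraries, at 5.3 and 0.0118 FPKM, disagreed: without the first the difference was 3.88 and without the second 1.24, and with the libraries entered singly it was not past 1.5-fold.

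Receptors of the stimulus were part of the difference. Of 18 genes of the endosomal TLR pathway, 11 were higher and 3 lower, 6 past 1.5-fold higher. Tlr9, the CpG receptor, was at 5.86 and 6.07 FPKM in ERKO OVX and 19.7 and 18.9 FPKM in Ex3a OVX (1.54 ± 0.05). Tlr7, the loxoribine receptor, was at 18.3 and 18.3 and 29.5 and 30.0 FPKM (0.67 ± 0.05), higher but not past 1.5-fold. Unc93b1, the chaperone that carries these receptors to endosomes, went from 154 and 152 to 344 and 343 FPKM (1.16 ± 0.04). The adaptor Myd88 rose by 0.36, while Irak1 (-0.14 ± 0.04), Traf6 (-0.21 ± 0.05) and Traf3 (-0.49 ± 0.05) were lower. After adjustment for transcript length Irak1 had -0.10 (adjusted p = 0.06) and Traf6 -0.03 (adjusted p = 0.586) and no longer passed. Among receptors at the cell surface, Cd180 and its partner Ly86 were past 1.5-fold higher (1.01 ± 0.05 and 2.03 ± 0.10), while Tlr2 (-0.01 ± 0.05) did not pass.

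Chemokine genes split into opposite groups. Of 23 tested, 10 were higher and 10 lower, 7 and 9 past 1.5-fold, so their median was 0.07, a sign that turned negative when libraries were brought to the same sum (-0.10) or adjusted for transcript length (-0.17). The higher group held ligands of CCR2, which draws monocytes: Ccl12 at 3.97 and 2.7 FPKM in ERKO OVX and 55.7 and 55.1 FPKM in Ex3a OVX (3.72 ± 0.19), Ccl7 at 30.8 and 33.2 and 359 and 357 FPKM (3.44 ± 0.06), and Ccl2 at 201 and 202 and 603 and 595 FPKM (1.57 ± 0.04). These 3 genes share a cluster on chromosome 11. Pf4, platelet factor 4, went from 67.2 and 71.3 to 512 and 519 FPKM (2.88 ± 0.04), Cxcl14 from 6.71 and 6.6 to 32.3 and 31.6 FPKM (2.11 ± 0.07), and the interferon-induced Cxcl10 from 70.2 and 73 to 192 and 193 FPKM (1.41 ± 0.19). Cxcl10 had an adjusted p of 0.0292 in the 1.5-fold test, which was 0.0544 to 0.105 without any 1 KO library. Ccr2, the receptor, rose from 1.03 and 1.23 to 4.66 and 4.45 FPKM (1.38 ± 0.12).

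The lower group held the neutrophil attractants that act on CXCR2. Cxcl3 was at 1592 and 1616 FPKM in ERKO OVX and 356 and 348 FPKM in Ex3a OVX (-2.19 ± 0.05), Cxcl2 at 372 and 380.1 and 90.6 and 92.9 FPKM (-2.02 ± 0.12), and Cxcl1 at 357 and 361 and 86.6 and 93 FPKM (-1.99 ± 0.23). Cxcl1 had an adjusted p of 0.0148 in the 1.5-fold test, which was 0.0502 to 0.0636 without any 1 agonist-treated WT or KO library. Cxcl5 was lower as well (-2.01 ± 0.07). Csf3, the growth factor G-CSF, fell from 12.3 and 11.8 to 1.83 and 1.95 FPKM (-2.17 ± 0.17), while its receptor gene Csf3r was higher (3.18 and 3.41 to 17.1 and 16.6 FPKM, 2.06 ± 0.07).

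Cytokine genes leaned lower without a common direction. Of 25 tested, 7 were higher and 12 lower, 2 and 5 past 1.5-fold, with a median of -0.17. Il10, an anti-inflammatory cytokine, stood apart on the higher side, at 1.46 and 1.6 FPKM in ERKO OVX and 11.1 and 11.9 FPKM in Ex3a OVX (2.30 ± 0.13, adjusted p = 3.81e-07). Il6 was lower at 319.6 and 312 against 158 and 155 FPKM (-1.01 ± 0.07), Il23a, a subunit of IL-23, at 3.92 and 4.27 against 0.568 and 0.467 FPKM (-1.75 ± 0.13), and Il1b at 2293 and 2305 against 856 and 846 FPKM (-1.43 ± 0.21, not past 1.5-fold). Tnf, at 307 and 307 FPKM in ERKO OVX and 173 and 169 FPKM in Ex3a OVX, had a wide error and did not pass (-0.84 ± 0.29, adjusted p = 0.0615); without replicate 1 or 2 of WT with vehicle the adjusted p was 4.01e-05 and 3.97e-05. Il12b, the p40 subunit of IL-12 and IL-23, was lower by a small step (262 and 261 against 187 and 186 FPKM, -0.48 ± 0.05). Il1f9, an IL-36 cytokine gene, was the largest fall of all those in the plot of leading genes, at 50.5 and 50.6 FPKM in ERKO OVX and 6.76 and 6.12 FPKM in Ex3a OVX (-2.80 ± 0.06). Nos2, the inducible nitric oxide synthase, fell from 379 and 380.1 to 100.5 and 98.8 FPKM (-1.92 ± 0.06).

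IL-4, which was in the culture medium, induces a set of genes through STAT6, and these were mostly lower in Ex3a OVX. Of 16 tested, 5 were higher and 10 lower, 1 and 8 past 1.5-fold, with a median of -0.87. Ccl22, a ligand of CCR4 made by mature dendritic cells, was at 6215 and 6232 FPKM in ERKO OVX and 2222 and 2205 FPKM in Ex3a OVX (-1.49 ± 0.05). Ccl17, the other CCR4 ligand, was at 1523 and 1552 and 449.7 and 437 FPKM (-1.79 ± 0.05), and Chil3, a chitinase-like protein, at 4057 and 4063 and 1107 and 1108 FPKM (-1.87 ± 0.03). Irf4, a transcription factor of conventional dendritic cells and IL-4 responses, went from 24.5 and 25 to 9.78 and 9.11 FPKM (-1.30 ± 0.04). The mannose receptor gene Mrc1 went against the list (5.8 and 6.37 to 16.4 and 16.8 FPKM, 1.32 ± 0.06), the receptor gene Il4ra was higher by 0.43, and Stat6 was lower by 0.11 on the log2 scale, which after adjustment for transcript length was -0.07 and did not pass (adjusted p = 0.0895). Stat5a, which carries the GM-CSF signal, was at 63.8 and 64.3 against 20.0 and 20.1 FPKM (-1.63 ± 0.05).

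Dendritic cell maturation genes and class II genes did not move as bodies. Of 23 maturation genes, 8 were higher and 9 lower, 1 and 2 past 1.5-fold, and the median of 0.03 turned to -0.08 when libraries were brought to the same sum. Cd86, a costimulatory ligand, was higher (32.6 and 32.5 against 51.3 and 51.1 FPKM, 0.64 ± 0.04). The receptor Cd40 (241 and 243 against 136 and 131 FPKM, -0.86 ± 0.06) and Ccr7, which guides dendritic cells to lymph nodes (471 and 472 against 306 and 297 FPKM, -0.64 ± 0.04), were lower. Of 11 class II genes, 5 were higher and 3 lower with 0 past 1.5-fold. H2-Ab1 was at 1199.9 and 1192 against 1642 and 1631 FPKM (0.45 ± 0.04), and Ciita, the master regulator of the class, at 19.7 and 19.3 against 12.8 and 13.1 FPKM (-0.56 ± 0.04). The class II median of 0.09 turned to -0.07 with libraries brought to the same sum.

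Genes of the antioxidant response, many of them targets of the transcription factor Nrf2, were lower. Of 20 tested, 5 were higher and 14 lower, 0 and 9 past 1.5-fold, with a median of -0.72. Nqo1, a quinone reductase, was at 91.3 and 92.9 FPKM in ERKO OVX and 17.3 and 16.7 FPKM in Ex3a OVX (-2.37 ± 0.04, adjusted p = 3.75e-10). Prdx1, a peroxidase and one of the most abundant genes of the libraries, was at 6241 and 6214 and 2887 and 2859 FPKM (-1.12 ± 0.03). The cystine transporter gene Slc7a11 went from 138 and 139 to 42.4 and 41.7 FPKM (-1.70 ± 0.04), thioredoxin reductase Txnrd1 from 289 and 292 to 98 and 96.1 FPKM (-1.57 ± 0.04), and both subunits of the enzyme that starts glutathione synthesis fell, Gclm from 123 and 122 to 47.2 and 48.7 FPKM (-1.34 ± 0.05) and Gclc from 29.6 and 30.4 to 12.6 and 12.6 FPKM (-1.19 ± 0.04). Nfe2l2, which encodes Nrf2, was slightly higher (148 and 146 to 175 and 173 FPKM, 0.25 ± 0.05), and its inhibitor Keap1 was higher by 0.40. Enzymes of the same kind outside the list were among the 15 largest falls: the glutathione transferase Gsta4 (30.2 and 32.4 to 3.61 and 4.09 FPKM, -2.74 ± 0.12), the prostaglandin reductase Ptgr1 (213 and 210.0 to 43.9 and 41.8 FPKM, -2.28 ± 0.03) and the alcohol dehydrogenase Adh7 (13.2 and 14.3 to 1.58 and 1.64 FPKM, -2.50 ± 0.10).

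In 2 of these genes the promoter is printed because it holds the antioxidant response element TGACNNNGC, here on the opposite strand, within the bases shown in capitals (RefSeq, GRCm38.p6, 5′ to 3′ on the gene's strand).
Prdx1, chr4:116685441-116685540, plus strand: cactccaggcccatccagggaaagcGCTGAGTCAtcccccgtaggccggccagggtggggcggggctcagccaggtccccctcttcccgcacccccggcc
Gclm, chr3:122245398-122245497, plus strand: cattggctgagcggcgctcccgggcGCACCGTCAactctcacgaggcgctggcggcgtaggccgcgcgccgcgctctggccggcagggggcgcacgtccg
The element stood in 7 of 14 antioxidant genes with 1 listed start (50%) and in 15.1% of all 6867 windows. It stood in 15.4% of the genes higher and 12.3% of those lower past 1.5-fold.

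Enzymes of sterol synthesis were lower along the pathway. Of 23 tested, 0 were higher and 19 lower, 13 past 1.5-fold, and the median was -0.85. Sqle, which encodes squalene epoxidase, was at 28.5 and 29.3 FPKM in ERKO OVX and 11 and 11.1 FPKM in Ex3a OVX (-1.31 ± 0.05). Srebf2, the regulator of the pathway, was lower too (42.7 and 40.9 to 26.6 and 26.2 FPKM, -0.64 ± 0.04). Mvk (0.07 ± 0.08), Pmvk (0.08 ± 0.06), Dhcr7 (-0.02 ± 0.07) and Ebp (-0.06 ± 0.04) did not pass. Genes of the sterol receptor LXR and of lipid efflux were divided, 7 of 18 tested higher and 8 lower, 3 and 2 past 1.5-fold, with a median of -0.02. Nr1h3, which encodes LXRα, was higher (21.1 and 22.5 to 85.6 and 90.1 FPKM, 1.96 ± 0.07), with Abca1, a cholesterol exporter, at 0.56 ± 0.05 and Abcg1 at 0.25 ± 0.04.

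Glycolysis genes were lower by small steps. Of 23 tested, 4 were higher and 18 lower, 0 and 2 past 1.5-fold, with a median of -0.33. Ldha, lactate dehydrogenase, was at 704 and 699 against 476 and 475 FPKM (-0.56 ± 0.04) and the glucose transporter gene Slc2a1 at 121 and 121 against 66.6 and 64.8 FPKM (-0.87 ± 0.03). Egln3, an oxygen-sensing hydroxylase, fell the most (16.9 and 17.7 to 2.93 and 3.98 FPKM, -2.05 ± 0.08). Alarmins of the S100 family were lower: S100a8 at 826 and 816 FPKM in ERKO OVX and 181 and 182 FPKM in Ex3a OVX (-2.17 ± 0.16) and S100a4 at 1139 and 1123 and 376 and 370.4 FPKM (-1.60 ± 0.03). S100a9, the partner of S100a8, was at 252 and 254 and 53.9 and 61 FPKM but did not pass the test (-2.12 ± 0.81, adjusted p = 0.0832); without replicate 1 or 2 of WT with vehicle the adjusted p was 7.85e-07 and 7.83e-07.

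**Figure D2:**
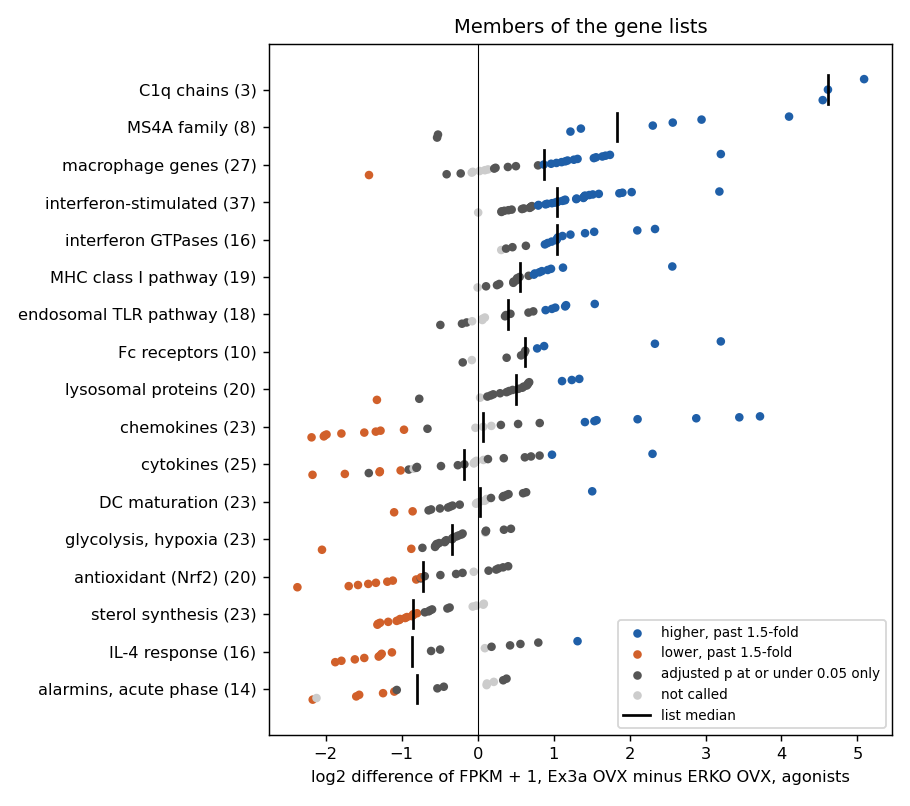
Log2 difference of FPKM + 1, Ex3a OVX minus ERKO OVX with agonists, for each tested member of 17 gene lists (number of members in brackets). Blue and orange points are past 1.5-fold, dark points have an adjusted p at or under 0.05 only, pale points did not pass, and the bar is the list median. C1q has a median of 4.61 and interferon-stimulated genes 1.05, while sterol synthesis has -0.85 and the chemokines lie on both sides of 0.

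The remaining genes of the leading 30 belong to other roles. Slc13a3, a carrier of dicarboxylates, was at 2.91 and 2.71 FPKM in ERKO OVX and 46.6 and 44.6 FPKM in Ex3a OVX (3.61 ± 0.09). Gpr31b, a G protein-coupled receptor gene, went from 1.79 and 2.26 to 21.2 and 20.7 FPKM (2.86 ± 0.14). On the lower side, Cav1, the coat protein of caveolae, was at 108 and 110.0 against 20.0 and 20.3 FPKM (-2.38 ± 0.04), Car4, a carbonic anhydrase, at 20.6 and 21 against 2.62 and 2.5 FPKM (-2.61 ± 0.06) and Slc6a9, a glycine carrier, at 11.4 and 11.2 against 1.56 and 1.92 FPKM (-2.17 ± 0.12). The protease inhibitors Serpinb9b (-2.28 ± 0.05), Stfa2 (-2.37 ± 0.40) and Stfa3 (-2.29 ± 0.06) and the ribonuclease gene Ear3 (-2.60 ± 0.26) were lower too. In these last genes the spread within a pair was wider, with Ear3 at 2.3 and 1.23 FPKM and Stfa2 at 1.61 and 3.92 FPKM in the Ex3a OVX libraries. Stfa2 was -1.91 without the first of these, and its adjusted p in the 1.5-fold test, 0.0353, was 0.0686 to 0.138 without any 1 of these or of the agonist-treated WT and KO libraries, apart from the second Ex3a OVX library.

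Genes of the translation and respiratory machinery moved little, and their shift was smaller after adjustment for transcript length or for the FPKM sum. All 30 ribosomal protein genes tested were higher, 0 past 1.5-fold, with a median of 0.36. After adjustment for transcript length 23 were higher and 1 lower, with a median of 0.16, and with libraries brought to the same sum 26 were higher and 0 lower, with a median of 0.19. Of 25 respiratory chain genes 19 were higher and 1 lower with a median of 0.19, but after the length adjustment 9 were higher and 5 lower with a median of 0.02, and with equal sums 7 were higher and 6 lower with a median of 0.01. Across 10537 genes with a length, split into 10 bins, the shortest bin (294 to 1265 bases) had a median log2 difference of 0.24 and the longest (from 6537 bases) a median of -0.24. With vehicle the same bins had 0.05 and -0.10. Past 1.5-fold, 73 genes were higher and 48 lower in the shortest bin, against 16 and 49 in the longest. The C1q chains have a median transcript length of 1088 bases and the interferon-stimulated genes one of 2597 bases, where all genes tested have 3053, and their medians after adjustment were 4.40 and 1.01. Among the genes named in the text, Cfp, Cxcl10, H2-K1, Hivep3, Ifitm3, Pan3 and Tmsb4x were no longer past 1.5-fold after the length adjustment. Cd68, Cd74, Ebp and Tnf then passed as lower and Parp14 as higher.

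**Figure D3:**
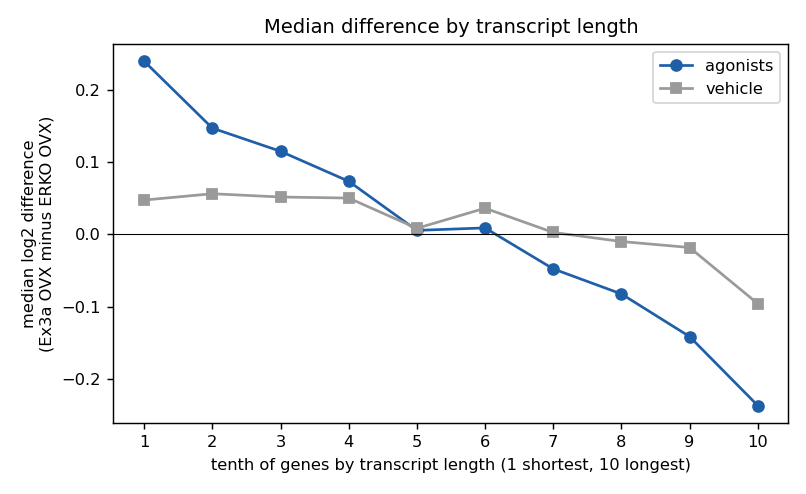
Median log2 difference, Ex3a OVX minus ERKO OVX, over 10 bins of the tested genes ordered by transcript length, for agonist-treated (blue circles) and vehicle-treated (grey squares) libraries. The agonist line falls from 0.24 in the shortest bin to -0.24 in the longest, and the vehicle line from 0.05 to -0.10.

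Markers of other cells that marrow cultures can hold also differed. Of 14 tested neutrophil markers 3 were higher and 7 lower, and their summed level was 6539 to 6547 FPKM in the ERKO OVX libraries and 2866 to 2867 FPKM in the Ex3a OVX libraries. That sum is mostly Chil3 and Lcn2, while the defining marker Retnlg was listed at 0 in all 4 libraries and Ly6g was not analysed here. An exact 0 may be a failed estimate. Of 9 tested basophil and mast cell markers, 1 was higher and 6 lower, and Ms4a2 reached the filter only through the ERKO OVX libraries. All listed markers of these cells summed to 95.7 to 100.4 FPKM in ERKO OVX and 49.0 to 49.2 FPKM in Ex3a OVX. Among these, Fcer1a, a chain of the IgE receptor (5.54 and 5.18 to 1.21 and 0.647 FPKM, -1.74 ± 0.08), and Mcpt8, a basophil protease (39.8 and 36.3 to 13.1 and 12 FPKM, -1.53 ± 0.10), were lower past 1.5-fold and Mcpt4 was listed at 0. Markers of T and NK cells summed to 34.7 to 36.4 FPKM in ERKO OVX and 99.5 to 99.6 FPKM in Ex3a OVX. Of the 17 listed, 8 reached the filter, 3 of them (Cd3d, Cd3g and Klrd1) only through the Ex3a OVX libraries, so no count of the higher ones is given. Gzmb, granzyme B, was at 11.1 and 11.3 against 42.6 and 44 FPKM, Nkg7 at 0.693 and 1.29 against 8.36 and 8.44 FPKM and Cd3g at 0.57 and 0.836 against 4.37 and 4.72 FPKM. Under the filter, Cd3e was at 0.288 and 0.188 FPKM in ERKO OVX and 0.738 and 0.877 FPKM in Ex3a OVX. Trac and Trbc2 were not analysed here.

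Within the dendritic cell classes, the markers of the cDC2 and mature class summed to 7960 to 7979 FPKM in ERKO OVX and 3660 to 3697 FPKM in Ex3a OVX, which Ccl22 dominates; 3 of 11 tested were higher and 7 lower, 0 and 2 past 1.5-fold. cDC1 markers summed to 119 to 121 FPKM and 151 to 155 FPKM, with Xcr1 and Clec9a under 1 FPKM in every library of the comparison. Plasmacytoid markers summed to 923 to 924 FPKM and 1466 to 1496 FPKM, mostly from the interferon-induced Bst2, with Siglech under 1 FPKM. Monocyte markers were divided, 7 of 12 higher and 5 lower, among the latter Vcan, a proteoglycan, at 5.52 and 5.31 against 1.86 and 2.16 FPKM (-1.09 ± 0.05). The macrophage list summed to 5580 to 5587 FPKM in ERKO OVX and 8050 to 8133 FPKM in Ex3a OVX. The part of these other cells in the gene groups above was not tested.

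Many of the genes that differed with agonists also differed without them. In the vehicle-treated libraries of the same arms, which share no library with the agonist comparison, 6263 genes (55.3%) differed, 3309 higher (29.2%) and 2954 lower (26.1%). Past 1.5-fold were 806 (7.11%), 435 higher (3.84%) and 371 lower (3.27%) in Ex3a OVX. Of the 480 genes higher past 1.5-fold with agonists, 316 were also higher past 1.5-fold with vehicle (65.8% of the first list, 72.6% of the second). Of the 374 lower genes, 246 were lower with vehicle (65.8% and 66.3%). None of the 854 was past 1.5-fold in the opposite direction, and 839 had the same sign, as had 73.3% of all genes tested. The difference between states was called in 240 of the 480 and in 191 of the 374, against 31.2% of all genes tested. These genes were chosen by the agonist difference, which enters the difference between states, so a larger share follows in part from that choice. The correlation of the 2 sets of log2 differences across 11331 genes was 0.80, a description only, as genes are not independent replicates. C1qb with vehicle was at 11.7 and 11.6 FPKM in ERKO OVX and 391 and 387 FPKM in Ex3a OVX (4.94 ± 0.10), and the median of interferon-stimulated genes was 0.80, of antioxidant genes -0.94 and of sterol synthesis genes -0.92.

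In some genes the arms differed by unequal amounts in the 2 states. The Ex3a OVX pair given agonists, which every value of this kind rests on, is the one that stood apart in Rn45s and the nuclear RNAs above, and their part in it was not tested. The difference with agonists minus that with vehicle had an adjusted p at or under 0.05 in 3533 genes (31.2%), 1879 higher (16.6%) and 1654 lower (14.6%), and was past 1.5-fold in 27 (0.238%), 16 higher (0.141%) and 11 lower (0.0971%). With libraries brought to the same sum the split was 746 higher and 3357 lower, and 10 and 31 past 1.5-fold, where the median of all genes moved by -0.133. Cd300e, an activating receptor of monocytes, was at 1.25 and 1.2 FPKM with vehicle and 2.17 and 2.61 FPKM with agonists in ERKO OVX, and at 0.517 and 0.505 and 13.7 and 14.1 FPKM in Ex3a OVX, a difference of differences of 2.70 ± 0.11 (adjusted p = 4.05e-06). Il10 was at 0.77 and 0.749 FPKM with vehicle and 1.46 and 1.6 FPKM with agonists in ERKO OVX, and at 1.48 and 1.34 and 11.1 and 11.9 FPKM in Ex3a OVX (1.85 ± 0.19, adjusted p = 2.10e-04). Both genes were high in the Ex3a OVX libraries given agonists and low in the rest. Slc13a3 and Fcrls were higher in Ex3a OVX in both states and more so with agonists, by 2.05 ± 0.13 and 1.66 ± 0.18. With equal FPKM sums the difference between states was 1.80 in Il10 and 1.63 in Fcrls, and neither was past 1.5-fold. Nor was either past it without the filter or with 0.1 FPKM added, and with 0.1 FPKM added Slc13a3 was not. In the 1.5-fold test of this difference Il10 had an adjusted p of 0.0219, which was 0.0529 to 0.0533 without either vehicle-treated WT library, and Fcrls had 0.0328, which was 0.0567 to 0.0767 without any 1 vehicle-treated WT or KO library. The count of 27 was 18 without replicate 1 or 2 of KO with vehicle.

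In the other direction, Cxcl2 was at 95.4 and 90.5 FPKM with vehicle and 372 and 380.1 FPKM with agonists in ERKO OVX, and at 71.7 and 67.5 and 90.6 and 92.9 FPKM in Ex3a OVX (-1.61 ± 0.17, adjusted p = 9.79e-04). Csf3 (-1.54 ± 0.24) and Cxcl1 (-1.19 ± 0.32) followed the same order; Cxcl1 rested on a narrow call (adjusted p = 0.0483), which leaving out single WT, KO or OVX libraries ended (0.0511 to 0.099). Nlrp3, the inflammasome sensor, was higher in Ex3a OVX with vehicle (3.7 and 3.39 against 4.89 and 4.61 FPKM) and lower with agonists (8.17 and 8.08 against 3.72 and 3.56 FPKM). Il12b moved the opposite way, from -2.10 ± 0.05 with vehicle to -0.48 ± 0.05 with agonists, since its vehicle libraries were at 196 and 196 FPKM in ERKO OVX and 44.8 and 44.9 FPKM in Ex3a OVX. Marco, a scavenger receptor, was lower in Ex3a OVX with vehicle (-0.40 ± 0.06) and higher with agonists (0.97 ± 0.06).

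**Figure D4:**
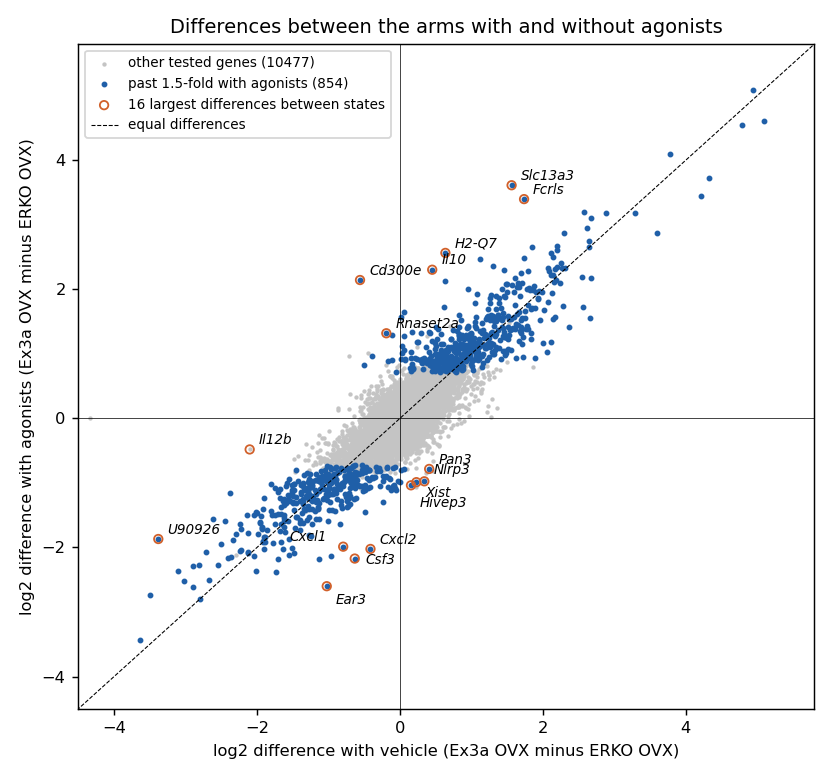
Log2 difference between arms (Ex3a OVX minus ERKO OVX) with vehicle on the horizontal axis and with agonists on the vertical axis, 1 point per tested gene; blue, the 854 genes past 1.5-fold with agonists; orange rings, the 16 named genes with the largest difference between states. Blue points lie on both sides of the dashed line of equal differences, with C1qb at 4.94 and 5.09, while Cd300e lies at -0.56 and 2.14; 1 gene, Rn45s, is outside the axes.

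The agonist-treated libraries of unoperated mice give a second pair of arms, WT and KO, for the same genes. Their surgery and their hormone state differ from those of the ovariectomized arms. Over all unoperated libraries the depth was 36.5 to 43.8 M fragments, against 17.6 to 23.7 M in the ovariectomized ones. The FPKM sums were 481738 to 522287 against 612322 to 696321. Xist was at 54.8 to 66.5 against 4.33 to 9.74 FPKM. Neat1 was at 137 to 221 against 7.79 to 18.7 FPKM. The borrowed errors come from these unoperated libraries. The part of these library differences in the levels and orders below was not tested. Levels between the pairs are therefore set side by side only. The WT minus KO difference was added after the data were seen. It was called in 6206 of 11330 genes (54.8%), 3126 higher (27.6%) and 3080 lower (27.2%) in WT, and was past 1.5-fold in 332 (2.93%), 232 higher (2.05%) and 100 lower (0.883%). Genes higher past 1.5-fold in Ex3a OVX over ERKO OVX and also in WT over KO numbered 45 (9.38% of 480, 19.4% of 232), and 12 of the 480 were past 1.5-fold in the opposite direction. Of the 374 lower genes, 25 were also lower in WT (6.68%, 25% of 100) and 58 were higher there (15.5%).

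Some gene groups showed the same order in both pairs of arms. C1qb was at 243 and 233 FPKM in WT and 12.5 and 14.8 FPKM in KO, and the C1q median of WT minus KO was 4.40. Pf4 was at 583 and 566 FPKM in WT and 85 and 90.4 FPKM in KO, beside 512 and 519 FPKM in Ex3a OVX and 67.2 and 71.3 FPKM in ERKO OVX. Ccl7 had the order of C1qb and Pf4, at 59.3 and 55.8 FPKM in WT and 20.1 and 20.4 FPKM in KO. Macrophage genes had a median of 0.69 in WT minus KO, and sterol synthesis genes one of -0.33, with 20 of 23 lower. Other groups had opposite signs. Interferon-stimulated genes had a median of -0.30 in WT minus KO (8 higher and 25 lower), antioxidant genes one of 0.81 (16 higher and 0 lower), and IL-4 response genes one of 0.66. Ifit3 was at 11.4 and 11.6 FPKM in WT and 12.9 and 12.2 FPKM in KO, so that both ovariectomized arms, and Ex3a OVX the most, stood above the unoperated ones. For Nqo1 the levels were 52.3 and 50.5 FPKM in WT and 18.3 and 18.2 FPKM in KO, and for S100a8 74.4 and 77 and 80.4 and 81.6 FPKM, so that ERKO OVX was the high arm in both genes.

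The mean of each ovariectomized pair was set against all 4 unoperated agonist libraries. For Ex3a OVX it was above every one in 443 of the 480 higher genes (92.3%, against 43.9% of all genes tested). It was below every one in 265 of the 374 lower genes (70.9%, against 43.3%). The genes were chosen by the Ex3a OVX and ERKO OVX values themselves, so shares unlike those of all genes follow in part from the choice. For ERKO OVX the mean was above all 4 in 287 of the 480 (59.8%) and in 205 of the 374 (54.8%), where 41.6% of all genes tested had that order. In Fcgr1 the Ex3a OVX mean was above all 4, at 7.3 and 7.12 FPKM in WT and 2.99 and 3.89 FPKM in KO against 148 and 143 FPKM in Ex3a OVX. The same order held in Il10, at 1.16 and 0.744 and 0.488 and 0.46 FPKM in WT and KO.

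**Figure D5:**
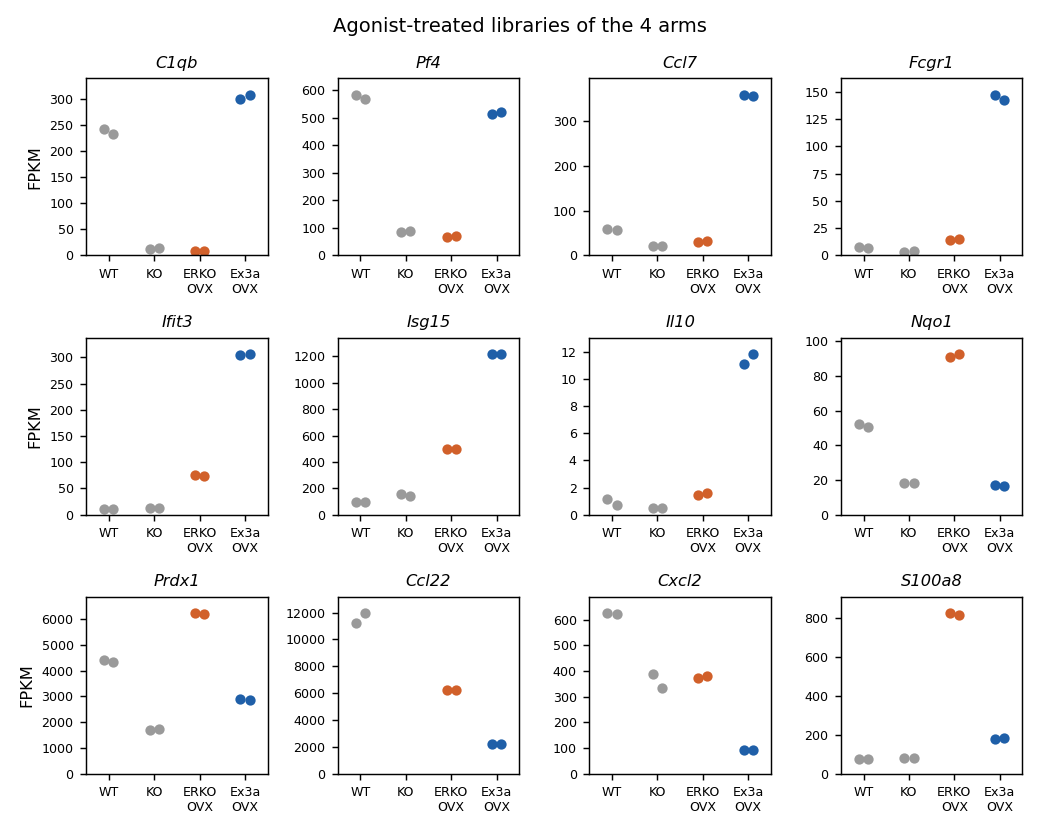
FPKM of 12 genes in the 8 agonist-treated libraries, 2 per arm, each panel with its own linear axis from 0. C1qb and Pf4 are high in WT and Ex3a OVX, Ifit3, Isg15, Fcgr1 and Il10 in Ex3a OVX, and Nqo1, Prdx1 and S100a8 in ERKO OVX; Ccl22 has no point for KO because its zeros there were taken as missing.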

How the data were processed

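RNA-seq was summarised by the authors as 1 deposited table of 24001 gene rows with FPKM in 16 libraries; which program made the FPKM is not given in the sources used. Tools listed, without versions or roles, in the submitters' processing notes are STAR, HTSeq, DESeq2, FastQC and cutadapt, with mm10 as the build. The depth was estimated only roughly, from steps between low values, of which 48.8 to 50.5% fell within 0.1 of a whole number in the 4 libraries compared, so no count test was run.

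Rows at 0 in all libraries (5724), small RNAs (1225) and symbols turned into dates (27) were left out, and 5 zeros in 4 otherwise well expressed genes were taken as missing, among them Jak2 in ERKO OVX agonist replicate 1. The fit used limma 3.58.1 in R 4.3.3 on log2(FPKM + 1), with a trended, robust variance and a coefficient for each of 8 groups. Each ovariectomized pair was averaged to 1 sample, because its variance over the sampling variance was 0.994 to 1.47 (3.49 to 10.5 in the unoperated pairs). That ratio used 59 to 106 genes a pair and depends on depth. Over all genes tested, the median absolute log2 difference within a pair was 0.0426 to 0.0486 in the ovariectomized groups. It was 0.0386 to 0.0448 in the unoperated groups, so their spread was no wider by this measure and may be technical as well. With the ovariectomized pairs averaged, the spread comes from the unoperated groups with 4 residual degrees of freedom. P-values were adjusted by the Benjamini-Hochberg method over 11331 genes. In simulated data of the agonist comparison, changes of 0.5, 1 and 2 on the log2 scale were called in 92%, 99% and 100% of 200 changed genes, and past 1.5-fold in 0%, 88.5% and 100%. Only genes with a mean of at least 5 FPKM were changed. The simulated ovariectomized samples were given the spread of the unoperated groups, so the simulation cannot check that this spread holds for them.

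Groups were taken from the labels, which speak of triplicates; 2 libraries a group were analysed here. Named genes were Esr1 and its neighbours, the 15 largest differences each way among called genes of at least 5 FPKM, the 10 most abundant called genes that differed by 1.5-fold, the 8 largest differences between states each way, and, in each list, the members that differed most, the most abundant and the defining ones; some members are not reported here by name. Of the listed symbols without a row, 6 were matched to an older symbol of the table through RefSeq synonyms. The comparison, the members and the gene lists were chosen with earlier results of these data known. Promoters and coordinates are from RefSeq and GENCODE for GRCm38, the assembly called mm10.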

Additional observations from a re-analysis of the deposited data

Results flagged for a closer look

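The difference between the arms was not the same in both treatment states for 16 genes that the rule for named genes picked, tested by the interaction term of the limma fit (adjusted over 11331 genes). Each value here is the log2 difference with agonists minus that with vehicle, and the values for each state are Ex3a OVX minus ERKO OVX.

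In 8 genes it was positive. Cd300e, a receptor of monocytes, had 2.7 (2.14 with agonists, -0.56 with vehicle). Slc13a3, a dicarboxylate carrier, had 2.05 (3.61 and 1.56), and Il10 had 1.85 (2.3 and 0.45). H2-Q7, a class I gene, had 1.93 (2.56 and 0.64), but it was 3.25 without ERKO OVX agonist replicate 1 and 0.61 without replicate 2. Fcrls, an Fc receptor-like gene, had 1.66 (3.4 and 1.74). Il12b, the p40 subunit, had 1.62, from -2.1 with vehicle to -0.48 with agonists. U90926 had 1.51 (-1.87 and -3.38) and Rnaset2a, a ribonuclease gene, 1.51 (1.32 and -0.19).

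In the other 8 it was negative. The chemokine genes Cxcl2 and Cxcl1 had -1.61 (-2.02 with agonists, -0.41 with vehicle) and -1.19 (-1.99 and -0.79), and Csf3, which encodes G-CSF, had -1.54 (-2.17 and -0.63). Nlrp3, the inflammasome sensor, had -1.32 (-0.98 and 0.34) and Ear3, a ribonuclease gene, -1.58 (-2.6 and -1.02). Xist had -1.22 (-0.99 and 0.23), Pan3, a subunit of a deadenylase, -1.19 (-0.78 and 0.41) and Hivep3, a zinc finger gene, -1.19 (-1.04 and 0.15).

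Some of these calls rested on single libraries. The adjusted p of Ear3, 0.0233, was 0.0639 without either agonist-treated KO library. In the 1.5-fold test Xist went from 0.0422 to between 0.0504 and 0.0829 without any 1 of the WT libraries, the vehicle-treated KO libraries or Ex3a OVX agonist replicate 2, and Pan3, in the agonist comparison, from 0.0333 to 0.0564 to 0.0565 without either vehicle-treated KO library. No cause of these differences was tested.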

How the results depend on the processing

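The agonist and vehicle counts of called genes stayed within 1.5 times their values of 7105 and 6263 under every alternative run (pseudocount, filter, scaling, transcript length, libraries entered singly, no robust variance, 1 library left out). With 5 FPKM added before the logarithm, genes past 1.5-fold numbered 544 with agonists, 529 with vehicle and 16 for the difference between states. That last count, 27 in the fit described, was 64 with 16 libraries entered singly, 56 with the 8 ovariectomized libraries alone, 41 with equal FPKM sums and 11 without a filter. With 16 libraries entered singly, 5526 genes were called for the difference between states. Leaving out 1 library at a time gave 6962 to 7199 genes called and 833 to 877 past 1.5-fold with agonists, 6121 to 6377 and 785 to 816 with vehicle, and 3271 to 3698 and 18 to 32 for the difference between states, the lowest without replicate 1 or 2 of KO with vehicle. Replicate numbers did not pair the samples (correlations of -0.074 to 0.060 between groups); with a replicate block and libraries entered singly, 8116, 7475 and 5494 genes were called, and 66 were past 1.5-fold for the difference between states. Of 4951 values of 184 named genes in the agonist comparison, 4819 kept their direction and their side of the threshold, 76 lost the call and 55 gained it. The sign of Syne1 turned to 0.17 after adjustment for transcript length, an alternative added after the data were seen. The cause of these changes was not tested. Values near or under 1 FPKM limit the precision of low genes, and 1 averaged sample per arm limits every error given.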

Other observations

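Several gene families that the report does not describe as such also differed between the arms with agonists; some of their members are in its lists. They were chosen after their values were seen, so the counts are descriptions with no test of a family. The serpin gene Serpinb1c and the integrin gene Itga9 reached the filter on low values only through the Ex3a OVX libraries. Both are counted as higher in their families below, and Itga9 also as past 1.5-fold. The granzymes, serine proteases that cytotoxic lymphocytes store in granules, were higher in Ex3a OVX in 7 of 7 tested members, all 7 past 1.5-fold, with a median log2 difference of 2.08. Gzma was at 2.57 and 2.96 FPKM in ERKO OVX and 20.7 and 18.8 FPKM in Ex3a OVX (2.46 ± 0.12), Gzmd at 5.44 and 4.65 and 37.9 and 35.9 FPKM (2.65 ± 0.12), and Gzmc at 11 and 11.8 and 49.3 and 53.7 FPKM (2.08 ± 0.21). The T and NK cell markers, whose summed levels stand in the report, include Gzma and Gzmb, so those sums are not a separate result. The lowest tested member of that list had a log2 difference of -0.61. Close paralogs among the granzymes may share reads.

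Of the 4 Phf11 genes, 4 were higher, 3 past 1.5-fold, with Phf11b at 29.3 and 28.4 FPKM in ERKO OVX and 108 and 110.0 FPKM in Ex3a OVX (1.88 ± 0.06). The GIMAP GTPases, named for lymphoid tissue, were higher in 5 of 7, 2 past 1.5-fold, though Gimap3 and Gimap7 reached the filter on low values only through the Ex3a OVX libraries, and Gimap4 was at 1.17 and 0.85 against 6.45 and 6.43 FPKM (1.89 ± 0.07). Among the P2Y purine receptors, P2ry6, a receptor for UDP, was higher (27.5 and 26.5 against 59.8 and 60.9 FPKM, 1.13 ± 0.05). P2ry12, a receptor for ADP, was at 0.168 and 0.219 against 1.58 and 1.96 FPKM and reached the filter only through the Ex3a OVX libraries. Apolipoprotein L genes were divided, 3 higher and 2 lower of 6, with Apol9a at 4.44 and 4.65 against 24 and 23.2 FPKM (2.15 ± 0.10).

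On the lower side stood the metallothioneins, which bind zinc and copper, with 3 of 3 lower past 1.5-fold and a median of -1.92. Mt1 was at 1229 and 1209 FPKM in ERKO OVX and 401 and 411 FPKM in Ex3a OVX (-1.58 ± 0.03) and Mt2 at 923 and 910.4 and 241 and 243 FPKM (-1.92 ± 0.06). The alpha glutathione transferases, which conjugate glutathione to reactive compounds, were lower in 4 of 4, 3 past 1.5-fold, with a median of -1.79, though Gsta1 reached the filter only through the ERKO OVX libraries. Of 13 tested clade B serpins, inhibitors of proteases inside cells, 2 were higher and 10 lower, 0 and 3 past 1.5-fold, and Serpinb1a was at 38.9 and 37.4 against 10.1 and 10.4 FPKM (-1.80 ± 0.05). The integrin genes were divided, 6 of 16 higher and 9 lower, 4 and 2 past 1.5-fold: Itgal, the αL chain of LFA-1, was higher (37.5 and 38.7 against 76.4 and 73.1 FPKM, 0.95 ± 0.06), while Itgb3, the β3 chain, was lower (5.25 and 5.28 against 1.32 and 1.42 FPKM, -1.40 ± 0.07).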
